A study of Mus musculus with 29 samples.

Results

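The 10 genes described here mark the resident macrophages of the mouse peritoneal cavity: Gata6, Timd4, Alox15, Icam2, Adgre1, Fn1, Selp, Prg4, Rarb and Cxcl13. They were chosen by name, and each gene was given the regions of the 25 deposited peak lists that touched its body (GRCm38, GENCODE M21) extended by 20 kb on each side. The lists held 1008665 distinct regions in all, and 707 of them lay at the 10 genes, out of 21938 protein-coding genes on chromosomes 1 to 19, X and Y. CUT&RUN, in which an antibody tethers a nuclease to a chromatin protein and the released DNA is sequenced, was used throughout, in female mice. The transcription factor IRF8 was mapped through its EGFP tag in the IRF8-EGFP strain, in microglia (the macrophages of the brain) at postnatal day 9 (P9, 4 libraries) and 14 (P14, 3 libraries) and in adults (3 libraries), and in peritoneal macrophages (3 libraries). PU.1, H3K27ac and H3K4me1 were mapped in microglia of 3-month-old WT and IRF8KO mice, with 2 libraries for each target and genotype. The labels share 1 protocol text, which gives that age for WT and IRF8KO brains; it was taken to hold for the adult IRF8-EGFP microglia too, and it gives no age for the macrophages. The 4 IgG control samples entered only through the authors' peak calls.

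Macrophages of the body cavities take on their identity from local signals. Retinoic acid made by cells of the omentum and mesothelium induces the transcription factor GATA6, which maintains the self-renewing large peritoneal macrophages. IRF8 is a transcription factor of the myeloid lineage that often binds DNA together with PU.1 at composite sites, and microglia need it for their mature state. H3K4me1 marks primed and active enhancers, and H3K27ac marks active enhancers and promoters.

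The 13 IRF8 libraries had 7.25 to 24.7 M fragments (M, mega) and the 12 PU.1 and histone libraries 8.57 to 23.9 M. The IRF8 lists differed in length far more than depth did: 1168 to 2068 regions in P9, 7931 to 19238 in P14, 17048 to 29661 in adult microglia and 9787 to 23162 in macrophages. Each age and tissue had its own IgG control, so age or tissue and control cannot be told apart. The labels do not say whether replicates came from separate animals, so the spread between them may be technical. The source label of the macrophage libraries names microglia, and the titles were followed; the labels do not say how the macrophages were isolated. Of 8 microglia markers 7, 6 and 6 had an IRF8 region in the macrophage libraries and 8 in each adult library, and 2 of them, named after their values were seen, differed most plainly. Sall1 had 0, 0 and 1 regions against 3, 9 and 2 in adult microglia, and Siglech had 1, 0 and 0 against 6, 6 and 7. A region says that enough cells of the pool carried the signal, and binding in few cells cannot be told apart from weak binding in many.

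In the macrophages IRF8 regions stood at nearly all of the 10 genes, and in adult microglia at 4 of them. Peaks of a group were merged, and a merged region that 2 or more of its libraries supported is called a consensus region. One was found in macrophages at 9 of the 10 genes, against 39.9% of all protein-coding genes. In adult microglia 4 of the 10 had one (Gata6, Timd4, Adgre1 and Rarb), against 50.6% of all genes. In P14 microglia there were 3 (Gata6, Timd4 and Adgre1), against 32.0%, and in P9 microglia 0, against 7.00%. The consensus regions at the 10 genes numbered 27 in macrophages, 9 in adult microglia, 4 at P14 and 0 at P9. Set against the length of each list, the 10 genes held 1.81, 2.35 and 1.43 regions per 1000 listed in the 3 macrophage libraries. The adult libraries gave 0.528, 0.708 and 0.491 and the P14 libraries 0.503, 0.624 and 0.504, so each macrophage library was above each later microglia library.

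**Figure D1:**
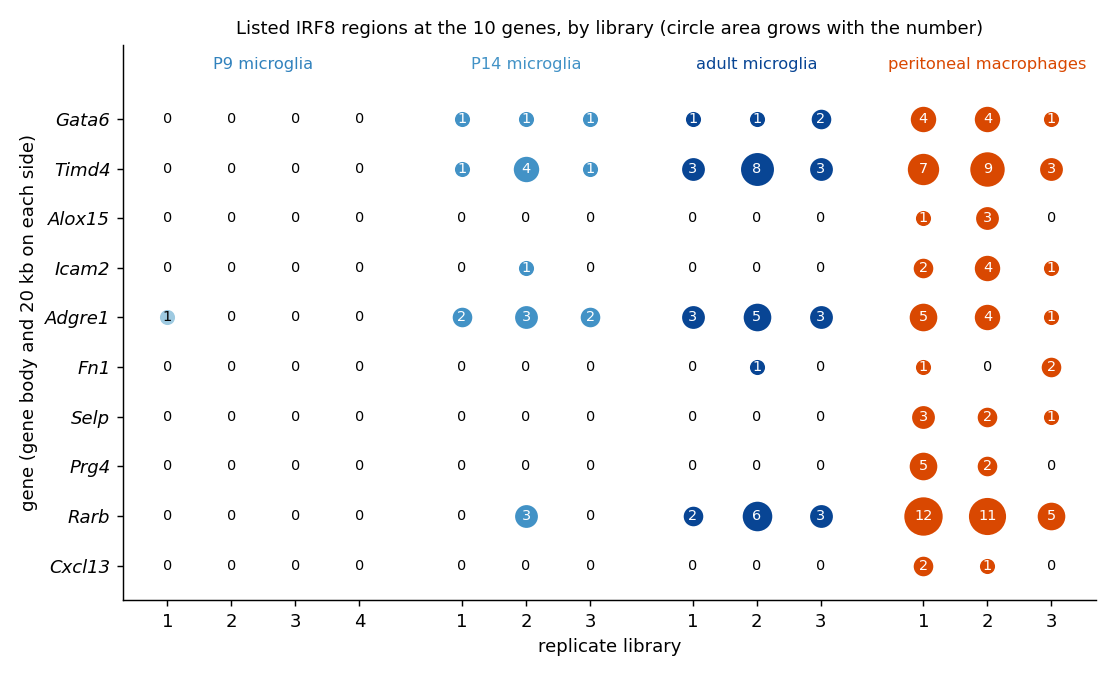
Listed IRF8 regions at each gene (rows) in each of the 13 IRF8 libraries (columns, by group and replicate); the number in each place is the count and the area of the circle grows with it. Icam2 and Selp have regions in all 3 macrophage libraries and none in any adult library, while Gata6, Timd4, Adgre1 and Rarb have regions in every adult and macrophage library.

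The excess was uneven between libraries. Without macrophage replicate 1 the genes with a consensus region fell to 5 (11 regions), against 16.2% of all genes, and without replicate 2 to 6 (11 regions), against 17.7%. Timd4, Icam2, Adgre1, Selp and Rarb had one in each of the 3 leave-one-out sets. With the adult and macrophage lists cut to the 9787 regions of highest −log10 p, 6 genes had a macrophage consensus region (14 regions), against 27.3% of all genes, and 4 had an adult one (5 regions), against 32.3%. Replicates 1 and 2 of both tissues belong to batch 1 and replicate 3 to batch 2. Within batch 1, 7 of the 10 genes had more regions in each macrophage library than in each adult library (6.64% of all genes) and 0 had fewer (14.1%). Within batch 2, 4 genes had more (Icam2, Fn1, Selp and Rarb; 12.1%) and 2 had fewer (Gata6 and Adgre1; 44.4%).

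Presence was tested with Fisher's exact test for each gene, 3 macrophage against 10 microglia libraries, two-sided, with Benjamini-Hochberg adjustment over the 21938 genes. No gene passed an adjusted p of 0.05 in either direction (0.00% of all genes). The smallest adjusted p over all genes was 0.619, because presence in 3 of 3 against 0 of 10 libraries gives at best an exact p of 0.0035. Before adjustment 5 of the 10 genes were under 0.05 and higher in macrophages (4.09% of all genes) and 0 lower (0.155%). These were Selp (3 of 3 macrophage and 0 of 10 microglia libraries, exact p = 0.0035), Icam2 (3 and 1, exact p = 0.014) and Alox15, Prg4 and Cxcl13 (2 and 0 each, exact p = 0.0385). Of the 10 microglia libraries 4 were from P9, where lists held 1168 to 2068 regions and 7.00% of all genes had a consensus region. Absence from those was thus common for any gene, and these unadjusted p-values rest in part on short P9 lists. With 3 against 3 libraries, macrophages against adult microglia alone, an exact test could not go below 0.1.

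The 6 stretches that carry the main patterns are printed on the forward strand of GRCm38, 5′ to 3′, up to 150 bases on each side of the strongest IRF8 summit and ending where an exon begins. Capitals mark every match, on either strand, to 6 short motifs. These were the ETS-IRF composite, to which PU.1 and IRF8 bind together, the interferon-response-like motif, the PU.1 core written GAGGAAGT, the GATA factor motif written AGATAA, the AP-1 motif written TGANTCA and the site of a single nuclear receptor written AGGTCA. The first is the Timd4 start, the strongest macrophage region of the set, at chr11:46810450-46810749. The second, at chr11:46834057-46834356, is the Timd4 intron region of microglia. Next come 3 macrophage regions where every adult library lacked a peak: the first intron of Icam2 at chr11:106387813-106388046, an intron of Selp at chr1:164135252-164135551 and the stretch before Rarb at chr14:16823864-16824163. The last is the stretch before the start of Cxcl13 at chr5:95956679-95956950.
Timd4 start: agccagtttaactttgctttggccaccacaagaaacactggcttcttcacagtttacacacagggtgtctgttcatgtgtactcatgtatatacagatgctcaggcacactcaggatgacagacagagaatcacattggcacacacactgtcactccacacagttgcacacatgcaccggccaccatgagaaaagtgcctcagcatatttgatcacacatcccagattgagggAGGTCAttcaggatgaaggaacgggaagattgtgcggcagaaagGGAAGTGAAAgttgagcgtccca
Timd4 intron: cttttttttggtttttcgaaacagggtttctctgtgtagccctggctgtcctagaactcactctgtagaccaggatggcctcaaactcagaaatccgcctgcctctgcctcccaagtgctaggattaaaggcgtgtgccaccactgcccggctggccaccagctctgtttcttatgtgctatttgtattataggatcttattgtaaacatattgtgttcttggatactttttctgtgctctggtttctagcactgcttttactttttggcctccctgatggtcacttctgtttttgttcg
Icam2 intron: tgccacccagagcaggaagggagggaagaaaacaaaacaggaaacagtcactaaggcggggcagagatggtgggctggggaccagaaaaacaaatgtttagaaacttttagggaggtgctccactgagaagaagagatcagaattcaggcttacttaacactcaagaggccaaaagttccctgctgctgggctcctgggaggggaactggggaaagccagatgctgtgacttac
Selp intron: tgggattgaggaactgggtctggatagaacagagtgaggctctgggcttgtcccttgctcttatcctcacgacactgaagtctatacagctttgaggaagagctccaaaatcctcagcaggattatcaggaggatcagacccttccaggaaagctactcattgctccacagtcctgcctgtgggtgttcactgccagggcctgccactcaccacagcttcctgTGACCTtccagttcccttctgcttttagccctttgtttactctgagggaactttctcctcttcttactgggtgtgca
Rarb upstream: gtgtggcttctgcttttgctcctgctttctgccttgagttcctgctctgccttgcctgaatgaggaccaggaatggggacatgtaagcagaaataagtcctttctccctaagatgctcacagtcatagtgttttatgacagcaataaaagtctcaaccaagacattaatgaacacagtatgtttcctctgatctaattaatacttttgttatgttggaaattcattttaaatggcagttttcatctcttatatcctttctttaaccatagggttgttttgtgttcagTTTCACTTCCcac
Cxcl13 start: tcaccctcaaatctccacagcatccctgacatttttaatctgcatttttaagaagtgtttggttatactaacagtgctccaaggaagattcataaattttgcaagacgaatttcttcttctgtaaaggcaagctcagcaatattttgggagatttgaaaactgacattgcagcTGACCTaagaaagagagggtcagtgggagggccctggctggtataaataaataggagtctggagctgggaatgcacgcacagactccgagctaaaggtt

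The Timd4 start holds the composite as GGAAGTGAAA, and the Rarb stretch holds the same 10 letters on the reverse strand, TTTCACTTCC. Single nuclear receptor sites lie in the Timd4, Selp and Cxcl13 stretches, and no letters of the 6 motifs were found in the Icam2 stretch or in the Timd4 intron. Over the 27 macrophage regions the composite was found within 150 bases of the summit in 4 (at Gata6, Rarb and Timd4), against 9.10% of all 12062 macrophage consensus regions. Its centre lay 141.5 bases from the summit at Gata6 and at Rarb and 131.5 at the Timd4 start, near the edge of the stretch. In the Timd4 region 12.3 kb before the start it lay 45.5 bases away. The GATA motif was found in 6 (14.6% of all), the nuclear receptor site in 8 (18.5%), AP-1 in 4 (11.4%), the PU.1 core in 2 (8.08%) and the interferon-response-like motif in 1 (8.27%). These are matches of letters, and binding at them was not measured.

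Among the transcription factors, Gata6 (chromosome 18), the regulator of large peritoneal macrophages, had IRF8 regions in both tissues. The macrophage libraries listed 4, 4 and 1, the adult libraries 1, 1 and 2, the P14 libraries 1 each and the P9 libraries 0, so macrophages and adults overlapped. One consensus region was shared by P14, adult and macrophage cells. Its summit lay 5.96 kb before the Gata6 start in macrophages and 5.67 kb before it in adults, within the noncoding gene 1010001N08Rik, with folds over control, as the authors' caller gave them, of 8.67 and 5.27 in 2 macrophage libraries, of 6.74, 8.07 and 5.05 in the adult ones and of 6.45 and 6.50 in 2 P14 libraries. Another 2 consensus regions were called in macrophages alone, 1.03 kb after the start (folds of 5.14 and 3.97) and 12.7 kb after it (4.49 and 3.67). Both rested on replicates 1 and 2, and the first also overlapped a peak of 1 adult library.

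Rarb, a retinoic acid receptor (chromosome 14, 16430839 to 16819156), had the most regions of the 10 genes, and at 388 kb it was also the longest. The macrophage libraries listed 12, 11 and 5 regions, the adult libraries 2, 6 and 3, the P14 libraries 0, 3 and 0 and the P9 libraries 0. Within each batch every macrophage library was above every adult one, while macrophage replicate 3 fell below adult replicate 2. Of its 10 macrophage consensus regions 2 overlapped an adult one, and both lay far from the start: one, 281 kb into the gene, and one beyond its end, within Top2b, the strongest adult region here (folds of 8.25 and 9.44). The strongest of the other 8, at chr14:16823827-16824404, lay 4.86 kb before the start, had folds of 16.0, 7.64 and 7.09 and met no adult peak. The next, at chr14:16546895-16548146, covered an exon 271 kb into the gene, with folds of 7.02, 4.91 and 6.25 and no adult peak. The region at chr14:16772254-16773340 in an intron had folds of 5.78 and 6.42. The other 5 lay in introns and had a peak in 2 macrophage libraries each. Those at chr14:16552269-16552834 (folds of 4.91 and 6.11), chr14:16563574-16564293 (2.97 and 4.64) and chr14:16573045-16573586 (3.43 and 4.59) met no adult peak. Those at chr14:16598054-16598445 (8.13 and 3.05) and chr14:16478901-16479559 (5.54 and 3.27) met a peak of 1 adult library.

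Of the surface proteins, Timd4 encodes a receptor for phosphatidylserine that serves the uptake of dying cells (chromosome 11, 46810800 to 46844332). The macrophage libraries listed 7, 9 and 3 regions, the adult libraries 3, 8 and 3, the P14 libraries 1, 4 and 1 and the P9 libraries 0, so the numbers overlapped. Of the 3 adult consensus regions 2 overlapped a macrophage one. Macrophages had 4 consensus regions, all at or before the start. The strongest, at chr11:46809929-46813472, spanned the start, with folds of 17.2, 16.9 and 7.09 and a mean rank at percentile 96.7 of its lists by −log10 p. At chr11:46797916-46800566, 12.3 kb before the start, the folds were 9.23, 8.72 and 8.76, and 1 adult library had a peak there. At chr11:46803415-46805130 they were 10.9, 11.3 and 4.33, with no adult peak. The fourth, at chr11:46792511-46794518, had folds of 9.95 and 4.50. Adult microglia shared the start (folds of 6.74 and 6.11, percentile 54.0) and the fourth region (7.26, 5.13 and 4.10). Their strongest Timd4 region was elsewhere, in an intron 23.4 kb after the start at chr11:46833520-46834708, with folds of 8.82, 13.7 and 12.3. That intron region was called in all 3 P14 libraries too (4.17, 7.23 and 4.39) and in 1 macrophage library.

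Adgre1, an adhesion receptor used as a general macrophage marker (chromosome 17, 57358691 to 57483527), had 3 consensus regions in each tissue, of which 2 overlapped between them. The macrophage libraries listed 5, 4 and 1 regions, the adult libraries 3, 5 and 3, the P14 libraries 2, 3 and 2 and the P9 libraries 1, 0, 0 and 0. A region at chr17:57346764-57348207, 11.4 kb before the start, was shared, with folds of 8.47 and 8.20 in macrophages and of 12.4, 11.5 and 5.86 in adults, and it was the strongest P14 region as well (12.1, 14.8 and 8.49). A neighbour 14.3 kb before the start was called in all adult (5.65, 3.35 and 3.73) and P14 libraries (8.75, 11.2 and 9.36) and in no macrophage library. A further one at chr17:57341634-57342687, 16.2 kb before the start, was called in all 3 macrophage libraries (4.72, 7.20 and 5.31) and in no adult library. A weaker region at the start was shared as well (4.56 and 3.92 in macrophages, 4.67 and 3.91 in adults).

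Icam2, an adhesion molecule of the immunoglobulin family (chromosome 11, 106377656 to 106388075), had 2, 4 and 1 regions in the macrophage libraries and 0 in every adult and P9 library, with 1 in P14 replicate 2. The region at chr11:106386817-106388473 covered its start and first intron, with folds of 10.0, 9.23 and 7.30 (percentile 93.2), and the second, at chr11:106381303-106383624, had folds of 3.99 and 3.66. Selp encodes P-selectin, which binds leukocytes to vessel walls and platelets (chromosome 1, 164115264 to 164150026). It had 3, 2 and 1 regions in macrophages and 0 in all 10 microglia libraries, and its consensus region in an intron at chr1:164135192-164136831 had folds of 9.53, 6.29 and 5.29. Icam2 and Selp were thus listed in every macrophage library and in no adult library, as 0.729% of all genes were. The windows of both hold other genes as well (Prr29 and Ern1 beside Icam2, F5 beside Selp), to which a region may belong.

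The secreted proteins and the enzyme each had regions in 2 of the 3 macrophage libraries, and their consensus regions had folds of 3.36 to 5.50. Prg4 encodes lubricin, a secreted glycoprotein (chromosome 1, 150449412 to 150466165), and had 5, 2 and 0 regions in macrophages and 0 in all microglia libraries. Its consensus regions lay in an intron at chr1:150462611-150464426 (folds of 4.61 and 5.50) and upstream at chr1:150469667-150471070 (4.17 and 4.28). Cxcl13, a chemokine that draws B cells (chromosome 5, 95956951 to 95961068), had 2, 1 and 0 regions in macrophages and 0 in microglia. Its single consensus region at chr5:95956621-95957269 spanned the start, with folds of 3.69 and 3.36, and was the weakest of the 27 (percentile 10.3). Fn1 encodes fibronectin of the extracellular matrix (chromosome 1, 71585520 to 71653200). It had 1, 0 and 2 regions in macrophages and 0, 1 and 0 in adults, and its consensus region at chr1:71652551-71653969 lay at the start (3.73 and 3.94), where Apol7d overlaps it. Alox15, a lipoxygenase of resident macrophages (chromosome 11, 70344152 to 70352031), had 1, 3 and 0 regions in macrophages at places that no other library repeated, and 0 in microglia.

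**Figure D2:**
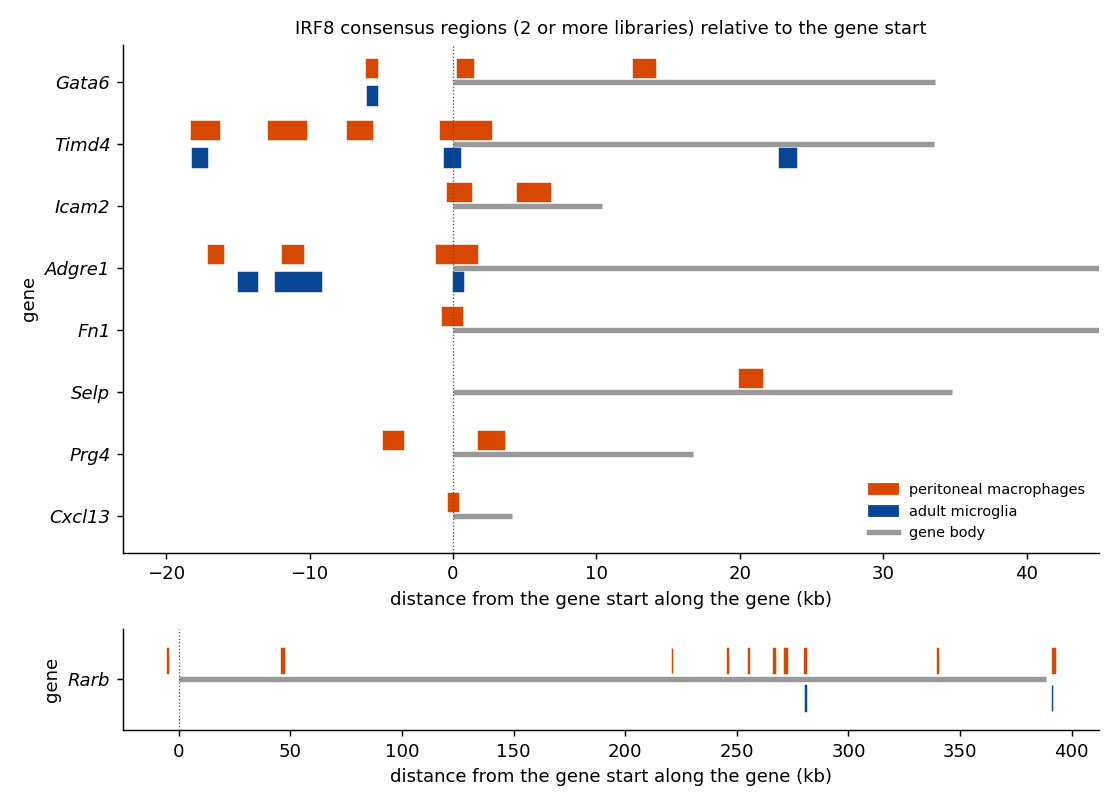
IRF8 consensus regions of macrophages (orange, above each gene) and adult microglia (blue, below) by distance in kb from the gene start, counted along the gene; grey lines are gene bodies, and Rarb has an axis of its own. Alox15 has no consensus region in either group and is not drawn. Macrophage regions touch the start at Timd4, Icam2, Adgre1, Fn1 and Cxcl13, and adult regions at Timd4 and Adgre1.

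Macrophage regions reached within 1 kb of the start at 6 of the 10 genes (Gata6, Timd4, Icam2, Adgre1, Fn1 and Cxcl13), against 15.0% of all genes, and adult regions at 2, against 23.0%. Of the 27 macrophage regions 7 overlapped an adult consensus region (25.9%), while 56.3% of all macrophage consensus regions did. With no peak in any adult library there were 16 (59.3%, against 30.5% of all), and 14 had none in any of the 10 microglia libraries (51.9%, against 28.8%). In the other direction 7 of the 9 adult regions overlapped a macrophage one (39.5% of all adult regions). Icam2, Selp, Prg4 and Cxcl13 had a macrophage consensus region and no region in any adult library, as 1.77% of all genes did, and the reverse held at 0 of the 10 (4.14%). Support differed between regions: 10 of the 27 had a peak in all 3 macrophage libraries and 17 in 2.

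The marks of WT adult microglia were read at the places bound by IRF8 in macrophages. Of the 27 macrophage regions 22 overlapped a WT H3K4me1 consensus region (81.5%, against 79.6% of all macrophage regions). For H3K27ac the number was 6 (22.2%, against 65.4%), and for PU.1 it was 1, the shared Adgre1 region (3.70%, against 23.5%). The H3K4me1 share was near that of all macrophage regions. The number on H3K4me1 was 2 where every peak had to reach a −log10 p of 5 and 1 with equal list lengths, and that on H3K27ac was 3 and 1. Without macrophage replicate 1 the numbers on H3K4me1, H3K27ac and PU.1 were 11, 1 and 0, and without replicate 2 the same, while without WT H3K27ac replicate 2 or WT PU.1 replicate 2 those on H3K27ac and PU.1 were 11 and 4, and without WT PU.1 replicate 1 that on PU.1 was 2. The PU.1 lists were short, with 5358 WT consensus regions in all. In IRF8KO microglia 17 of the 27 overlapped an H3K4me1 consensus region (63.0%, against 81.6%), and those that did so in WT alone were the 4 Timd4 regions, the shared Gata6 region and 2 regions of the Rarb window, 45.9 kb into the gene and within Top2b. The second Icam2 region and the upstream Prg4 region did so in IRF8KO alone.

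The knockout comparison set PU.1 and the histone marks of adult microglia with IRF8 beside those without it. A WT consensus region was taken as lost where neither IRF8KO library had an overlapping peak, and an IRF8KO region as gained where neither WT library had one. With 2 against 2 libraries an exact test cannot pass 0.05, so these are counts with no test. Loss of H3K27ac took 7 of the 22 WT regions at the 10 genes (34.0% of all WT regions) and gain 1 of 11 (10.9%). For H3K4me1 5 of 36 were lost (13.0%) and 5 of 38 gained (23.8%), and for PU.1 0 of 2 were lost (25.1%) and 1 of 2 gained (16.5%). The shares for H3K27ac and for lost H3K4me1 were near the background, and those for PU.1 rest on 2 regions each. Timd4 held 2 of the 7 lost H3K27ac and 4 of the 5 lost H3K4me1 regions. The shallowest library of the comparison was IRF8KO H3K27ac replicate 2, with 8.57 M fragments. Without it 8 H3K27ac regions counted as lost and 46 as gained, and without IRF8KO replicate 1, the deeper one, 13 and 12 did. With 1 library left every peak of it is a consensus region, which by construction raises these counts. With lists cut to equal length 3 H3K27ac regions counted as lost and 3 as gained.

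At Timd4 H3K27ac regions were lost within and after the gene, and H3K4me1 regions at and before its start. The WT libraries listed 3 and 6 H3K27ac regions there and the IRF8KO libraries 0 and 0, a pattern of both WT and neither IRF8KO library that 1.91% of all genes showed. Both WT consensus regions were lost: the microglial IRF8 intron region, at chr11:46833685-46834711 (folds of 6.17 and 9.16), and one downstream of the gene at chr11:46847868-46850036 (4.01 and 9.40). H3K4me1 regions numbered 8 and 8 in WT and 3 and 4 in IRF8KO, with 29.0 and 21.4 kb covered against 5.30 and 8.48 kb. Fewer H3K4me1 regions in each IRF8KO than in each WT library were found at 2.57% of all genes. At Timd4 4 of 7 WT H3K4me1 regions were lost, and they were the 4 that overlap the macrophage IRF8 consensus regions, at and before the start. Of the 4, 2 also overlapped an adult microglia IRF8 consensus region, as did 1 of the 3 that stayed, which lay in introns and downstream. Over the whole genome, 2.19% of the 8036 WT H3K4me1 regions that overlap a macrophage IRF8 region were lost, and 15.1% of the other 41701. At the 10 genes the order was the reverse, with 5 of 19 lost with a macrophage IRF8 region, the 4 of Timd4 among them, and 0 of 17 without. For adult microglia IRF8 regions the genome-wide shares were 2.86% and 16.2%, and at the 10 genes 2 of 10 were lost with an adult IRF8 region and 3 of 26 without.

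**Figure D3:**
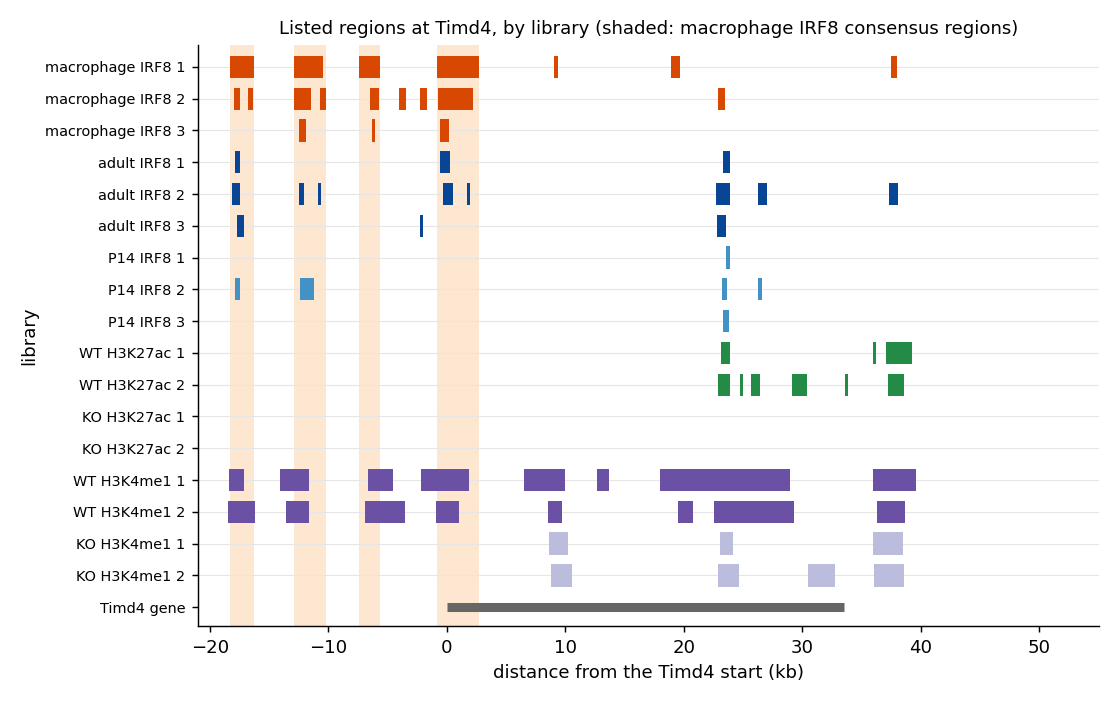
Listed regions at Timd4 by library (rows) and distance from the gene start in kb; shaded bands are the 4 macrophage IRF8 consensus regions and the grey bar is the gene. The WT H3K4me1 rows have a region in each band and the IRF8KO rows have none there, and the IRF8KO H3K27ac rows are empty.

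The IgG control was the same for both genotypes of each histone mark. The 4 lost H3K4me1 regions of Timd4 had folds of 1.77 to 3.45 in WT, and none of them met a −log10 p of at least 5 in both WT libraries. The single WT H3K4me1 region that did, at chr11:46846731-46850386 downstream of the gene, had a −log10 p of 11.8 and 7.30 in WT and of 3.19 and 2.32 in IRF8KO, so it is one of the 3 that stayed in the lists as deposited. Both lost H3K27ac regions met that threshold. Timd4 is also expressed by border macrophages of the brain, which a microglia sort could hold. At 8 border macrophage markers, chosen after the values of Timd4 were seen (Mrc1, Lyve1, Cd163, Pf4, Ms4a7, Folr2, Cbr2 and Clec10a), 0 of 24 WT H3K4me1 regions (13.0% of all) and 3 of 16 H3K27ac regions (34.0%) were lost, and 11 of 42 IRF8KO H3K4me1 regions (23.8%) and 6 of 15 H3K27ac regions (10.9%) were gained. At the 8 microglia markers 1 of 25 H3K4me1 and 17 of 55 H3K27ac regions were lost. The part of either cell type in the Timd4 values was not tested.

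**Figure D4:**
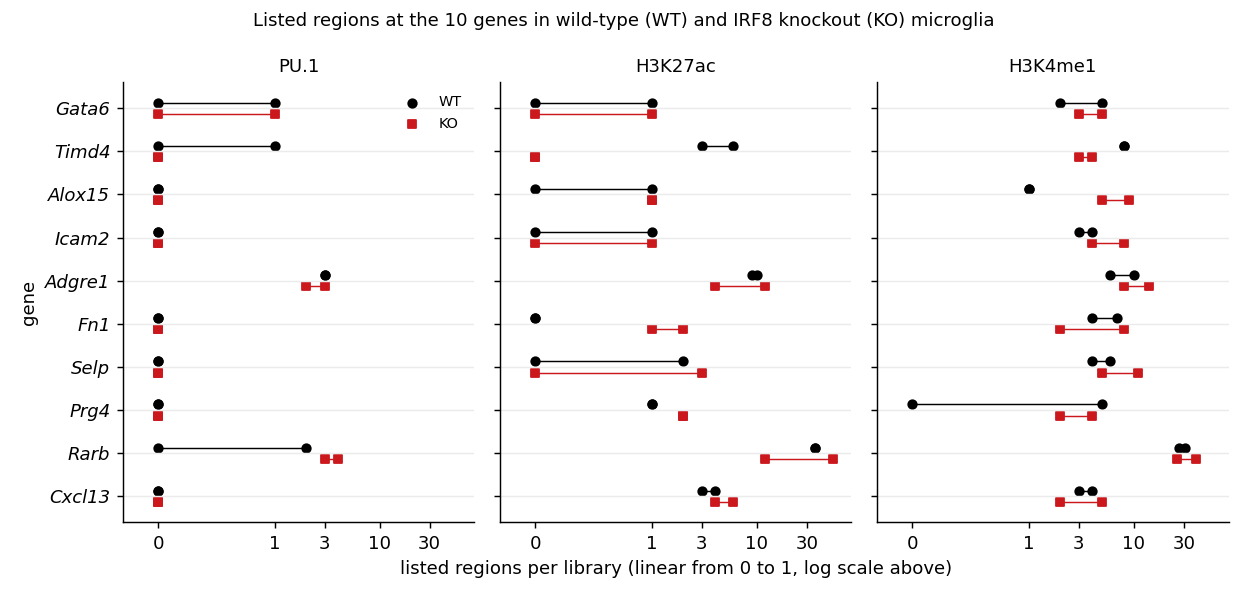
Listed regions at each gene in the 2 WT (black circles) and 2 IRF8KO libraries (red squares) for each target; lines join the libraries of a genotype, and the axis is linear from 0 to 1 and logarithmic above. Timd4 is lower in both IRF8KO libraries for H3K27ac and H3K4me1, and Alox15 is higher in both for H3K4me1.

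Alox15 had counts in the opposite direction. Its H3K4me1 regions numbered 1 and 1 in WT and 5 and 9 in IRF8KO, and covered 1.68 and 1.08 kb in WT and at least 7.22 kb in each IRF8KO library. More H3K4me1 regions in each IRF8KO library were common, however, at 34.0% of all genes, and IRF8KO replicate 2 had the longest list (189351 regions). Of the 3 Alox15 consensus regions of the knockout 2 were gained, at chr11:70356397-70359404, 4.99 kb before the start (folds of 1.99 and 1.72), and at chr11:70330784-70333117, which is nearer to Alox12e (1.97 and 2.22). Neither overlapped an IRF8 peak of macrophages or adult microglia. The third and strongest, at chr11:70367926-70383410 (4.17 and 3.42), was present in both genotypes. At Selp 1 H3K4me1 region was gained, 4.86 kb before the start (2.03 and 2.39).

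At Rarb the counts were mixed. The WT libraries listed 36 and 36 H3K27ac regions and the IRF8KO libraries 54 and 12, so the 2 knockout libraries lay on either side of WT. Of 14 WT H3K27ac regions 3 were lost, all in introns: chr14:16552280-16552716 (folds of 2.89 and 4.33), which overlapped a macrophage IRF8 region, and chr14:16438738-16439493 (2.95 and 5.60) and chr14:16559305-16560284 (4.28 and 3.60), which did not. A gained H3K27ac region lay in Top2b (5.01 and 4.16). The single lost H3K4me1 region, at chr14:16770953-16774240 (2.34 and 1.97), also overlapped a macrophage IRF8 region and no adult peak, and 2 H3K4me1 regions were gained, at chr14:16432574-16435134 (2.40 and 2.28) and chr14:16751095-16754406 (2.57 and 2.60). With every peak at a −log10 p of at least 5, 0 of 8 H3K27ac and 0 of 3 H3K4me1 regions of Rarb were lost. At that threshold 1 of 6 H3K27ac and 0 of 4 H3K4me1 regions were gained. PU.1 was listed in 2 and 0 regions in WT and 3 and 4 in IRF8KO. PU.1 libraries of the same replicate number shared their IgG control and q-value threshold in both genotypes, and in each such pair IRF8KO had more, as at 4.95% of all genes. The gained PU.1 region, at chr14:16597890-16598685 (3.52 and 5.36), overlapped a macrophage IRF8 region in an intron, and was no longer called with equal list lengths or where every peak had to reach a −log10 p of 5.

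The remaining genes differed little or unevenly between genotypes. Adgre1 had its PU.1 region 14.3 kb before the start in both (folds of 8.80 and 13.1 in WT, 10.4 and 15.7 in IRF8KO), and 1 of its 4 WT H3K27ac regions was lost, in an intron (4.01 and 3.27). Prg4 lost its single WT H3K27ac region, in an intron (4.32 and 4.58), while its listed regions numbered 1 and 1 in WT and 2 and 2 in IRF8KO. Fn1 had 0 and 0 H3K27ac regions in WT and 2 and 1 in IRF8KO, as 2.52% of all genes had regions in both knockout and neither WT library, and no knockout consensus region. For Gata6, Icam2 and Cxcl13 no consensus region of any of the 3 targets counted as lost or gained in the lists as deposited. This changed where every peak had to reach a −log10 p of 5. The 1 Gata6 H3K4me1 region left then counted as lost. At Cxcl13 1 of 2 H3K27ac regions and 1 of 1 H3K4me1 regions then counted as gained, as did 1 of 1 H3K4me1 regions at Adgre1. Listed H3K4me1 regions at Gata6 covered 12.8 and 13.3 kb in WT and 11.8 and 17.0 kb in IRF8KO, so the genotypes overlapped.

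Other genes of these pathways were read from lists. Of 22 other genes linked to peritoneal macrophages, 22, 22 and 11 had an IRF8 region in the 3 macrophage libraries and 12, 11 and 15 in the adult ones. A consensus region stood at 20 of the 22 in macrophages (39.9% of all genes) and at 11 in adults (50.6%). With at least 2 more macrophage than adult libraries there were 8, and with at least 2 fewer there were 0 (3.96% and 10.5% of all genes). Ltbp1, which anchors latent TGF-beta in the matrix, had 18, 18 and 4 regions against 0, 0 and 3, and Serpinb2, a protease inhibitor, had 10, 8 and 0 against 0 in each. The coagulation factor F10 had 2, 4 and 2 against 0 in each. The other 5 were Bhlhe40, F5, Cd93, Nt5e and C4b, and F5 shares its window with Selp.

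Of 11 genes of retinoid metabolism and signalling, 9, 9 and 6 had a region in macrophages and 6, 7 and 8 in adults. A consensus region stood at 8 of the 11 in macrophages (39.9% of all genes) and at 5 in adults (50.6%). With at least 2 more macrophage libraries there were 3 (3.96% of all genes), and with at least 2 fewer there were 2 (10.5%). Aldh1a2, which makes retinoic acid, had 3, 4 and 2 regions in macrophages and 0 in each adult library. Rxrg, a retinoid X receptor, and Cyp26b1, which breaks retinoic acid down, each had 2, 1 and 0 against 0 in each. Crabp2, which carries retinoic acid in the cell, had 2, 0 and 0 in macrophages and 1, 1 and 2 in adults, and Rxrb had 0, 3 and 0 against 2, 3 and 1.

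Markers of other peritoneal cells were read in the same way. Of 8 markers of small peritoneal macrophages 7, 7 and 6 had a region in macrophages and 5, 7 and 6 in adult microglia. Among them Retnla had 3, 4 and 0 regions against 0 in each, Ciita 6, 1 and 1 against 4, 11 and 3, and H2-Ab1 4, 3 and 0 against 3, 6 and 2, and each of the other 5 had a region in both tissues. Of 7 B cell markers the numbers were 7, 6 and 5 against 6, 7 and 7. Of 5 mast cell markers they were 2, 1 and 0 against 0, 1 and 2. Ms4a2 had 1, 1 and 0 macrophage regions with a consensus region, and Kit had 1, 0 and 0, while Mcpt4, Cpa3 and Fcer1a had 0. Of 4 eosinophil markers they were 3, 1 and 1 against 4, 4 and 3. Ccr3 had 7, 5 and 1 macrophage regions against 3, 6 and 3, with 4 and 3 consensus regions. Siglecf and Prg2 each had 1, 0 and 0 in macrophages, and Epx had 0. Of 3 T cell markers the numbers were 0, 1 and 0 against 1, 1 and 3, with Cd3d at 0, 1 and 0 in macrophages and Cd3e and Lck at 0. A macrophage consensus region stood at 6 of the 8 small macrophage and 5 of the 7 B cell markers, above the 39.9% of all genes. The same held at 6 of the 8 microglia markers. It stood at 1 of the 5 mast cell, 1 of the 4 eosinophil and 0 of the 3 T cell markers. Adult consensus regions stood at 5, 6, 8, 0, 4 and 1 in that order (50.6% of all genes). The part of other peritoneal cells in the macrophage counts was not tested.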

How the data were processed

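The deposited files are the authors' peak lists, 1 per library, for 13 IRF8, 4 PU.1 and 8 histone libraries. Per the file headers, MACS called each library against an IgG control (2.2.6 for histone marks and 2.2.7.1 otherwise), from read pairs with duplicates kept. The q-value threshold was 0.01, or 0.05 for PU.1 replicate 2 of both genotypes, with gaps of up to 640 bp joined, while broad calling at a p-value of 0.01 and a minimum length of 1000 bp was used for H3K4me1. Per the file headers, each peak carries a pileup signal, a −log10 p-value and a fold enrichment over the control; these are the authors' values, used only within each list. The submitters' processing notes name build mm10 and the tools bcl2fastq, Trim Galore, Bowtie2, deepTools and MACS2. Per the labels, 4 of 7 P9 and 2 of 3 IRF8KO H3K27ac samples were provided, with no reason given in the labels.

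Groups and replicates were taken from sample titles. Each distinct region was counted once, and overlap meant at least 1 bp. Python 3.11.15, pandas 2.3.3, NumPy 2.4.6 and SciPy 1.17.1 were used. The overlap code and the Fisher test were tested on simulated data with known answers. With 200 genes set to presence in every macrophage and no microglia library, 100% had an unadjusted Fisher p under 0.05. After adjustment 0% of the 200 were called, so the adjusted test misses even complete changes of this number of genes. Percentiles rank −log10 p within a list. Motifs were read from the GRCm38 RefSeq assembly. The 10 genes, the gene lists, the motifs and the comparisons were chosen with earlier results of these data known. All 10 genes are named, with the strongest region of each IRF8 group, each lost or gained region and each macrophage region without an adult counterpart; genes of the peritoneal macrophage and retinoid lists are named where macrophage and adult libraries with a region differ by at least 2, and markers of other cells where their values are given. The alternatives tried were other windows, stricter peaks, equal list lengths, stricter consensus and overlap, and leaving out each library. Lists give no read counts for regions, so the precision of a presence call rests on the number of libraries.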

Additional observations from a re-analysis of the deposited data

Results flagged for a closer look

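Adgre1 had 1 IRF8 region in P9 replicate 1 and 0 in the other 3 P9 libraries, a highest sample that stood apart from the rest of its group. It was the only region that any of the 4 P9 libraries listed at the 10 genes. With values of 0 and 1 this follows from a single region, and the other 9 genes, at 0 in all 4 libraries, could not stand out in this way.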

How the results depend on the processing

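No paired analysis was possible because the labels tie no replicate number to an animal and the counts carry no test. Macrophage and adult libraries share 2 batches, but an exact permutation within them could not go below a two-sided p of 0.167, so within-batch values are given as counts. Over the settings that leave no library out, 56 of 110 counts stayed within 1.5 times the reported count. The Fisher test is left out of these, since with a smallest adjusted p of 0.619 its 0 calls say nothing about stability. The P9 counts of 0 are among the 56, although stricter settings cannot raise a 0, so they say little about stability too.

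Within gene bodies alone, the genes and regions at P14 were 1 and 1, adult regions 4, macrophage and adult regions that overlap each other 3 and 3, macrophage regions on WT PU.1 0 and on WT H3K4me1 14, gained H3K27ac 0 and lost and gained H3K4me1 2 and 2. With 50 kb on each side the genes and regions were 5 and 8 at P14 and 7 and 16 in adults, macrophage regions on WT PU.1 5 and on H3K27ac 11, lost and gained H3K27ac 11 and 2 and lost and gained H3K4me1 8 and 11. With a −log10 p of at least 5, gained PU.1 was 0, lost and gained H3K27ac 3 and 2, lost and gained H3K4me1 2 and 3, and macrophage regions on H3K27ac 3 and on H3K4me1 2. With equal list lengths each comparison was cut to its own shortest list. At 1168 regions a list, that of a P9 library, genes and regions were 1 and 1 at P14, 0 and 0 in adults and 2 and 3 in macrophages, while at 9787, the shortest macrophage list, overlaps of the 2 tissues were 4 and 4. At the shortest list of each other comparison, gained PU.1 was 0, lost and gained H3K27ac 3 and 3, and macrophage regions on H3K27ac 1 and on H3K4me1 1. With adult and macrophage lists cut to the shortest of these 6, a setting chosen after seeing the data, the regions were 5 and 14. With a peak asked in every library, macrophage genes and regions were 5 and 10, overlaps of the 2 tissues 1 and 1, and macrophage regions on PU.1, H3K27ac and H3K4me1 0, 1 and 10. With absence from the other genotype's consensus, lost PU.1 was 1, lost and gained H3K27ac 14 and 3 and lost and gained H3K4me1 12 and 13.

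With each library left out, the macrophage genes ranged from 5 to 8 and regions from 11 to 25, and the overlaps of the 2 tissues from 3 to 7 each. Lost and gained PU.1 ranged from 0 to 2 and from 1 to 6, H3K27ac from 8 to 31 and from 2 to 46, and H3K4me1 from 8 to 27 and from 7 to 50. Macrophage regions on WT PU.1, H3K27ac and H3K4me1 ranged from 0 to 4, 1 to 11 and 11 to 23. Leaving out 1 of 2 WT or IRF8KO libraries makes every peak of the other a consensus region, or leaves the check for absence to 1 library, which by construction raises these counts.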

Other observations

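The 2 regions of adult microglia that stood apart by repeat content were the Timd4 intron region and the Rarb intron region 281 kb into the gene, with 56.7% and 96.0% of the bases within 150 bp of the summit masked as repeats in the assembly. More than 50% of these bases were masked in 4.03% of all adult consensus regions. The same held in 2 of the 27 macrophage regions of the 10 genes, at Rarb and 0.902 kb before the Adgre1 start, against 5.0% of all macrophage consensus regions. Reads were 35 bases long, and the part of mapping in these calls was not tested.

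The pattern of presence over the 13 IRF8 libraries was the same for Gata6 and Timd4 (every P14, adult and macrophage library). Each shared it with 998 other protein-coding genes, Timd4 or Gata6 included, 4.55% of all. Alox15, Prg4 and Cxcl13 had another (macrophage replicates 1 and 2 alone), each with 209 other genes, the others of this trio included. The pattern of Selp was shared by 119 other genes, that of Adgre1 by 82, of Fn1 by 41, of Icam2 by 16 and of Rarb by 401.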
